A study of Mus musculus with 27 samples.

Results

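The nuclear-encoded subunits of the respiratory chain were examined in RNA sequencing of macrophages sorted from the dura mater of mice without lymphocytes of their own. Members were all rows whose symbol begins with Nduf followed by a, b, c, s or v and a digit (complex I), is Sdha to Sdhd (complex II), begins with Uqcr or is Cyc1 (complex III), begins with Cox4 to Cox8 and a letter (complex IV), or begins with Atp5 and a letter (complex V, the ATP synthase). The rule found 95 of 41388 rows. Of these, 85 are protein-coding genes (37 of complex I, 4 of complex II, 9 of complex III, 18 of complex IV and 17 of complex V) and 10 are processed pseudogenes with at most 11 counts in a library. A filter on low counts passed 82 members. The 13 that did not pass are the 10 pseudogenes and 3 tissue-specific complex IV isoforms, Cox7b2, Cox8b and Cox8c.

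The respiratory chain of the inner mitochondrial membrane passes electrons from NADH (complex I) and succinate (complex II) through ubiquinone, complex III and cytochrome c to oxygen at complex IV. The proton gradient built along the way drives ATP synthesis at complex V. Most subunits are encoded in the nucleus, and the core proton-pumping subunits are encoded in mitochondrial DNA, so the chain is assembled from both genomes. Macrophages shift between glycolysis and oxidative phosphorylation with their state of activation, and alternatively activated macrophages are known for their use of oxidative metabolism.

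All mice were Rag1 ko on the B6 strain, which lack mature T and B cells, and were 16 to 19 weeks old. In the group without T cells (noT, 6 libraries) the mice were at steady state. In the other groups they had received T cells 6.5 weeks earlier from donors that were unmodified B6 (totalT, 5 libraries), Tbet ko (2), IFNg ko (2), IL6Ra ko/IL21R ko (7), IL-17AF ko (2) or IL22 ko (3). The Rag1 deletion is therefore shared by every group, and the labels do not say how many T cells were given or which markers defined the sorted cells. A library is given by its group and sex with a number that only tells it apart, as in totalT female 1. The labels do not state that each library came from a separate mouse, so each p-value reflects only how much these libraries vary, which may be partly technical.

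The 27 libraries held 6902602 to 19966749 counts and fell into 3 sets by the summed share of 86 cytosolic ribosomal protein genes, short genes with many processed copies that serve here as a measure of library type. Set A (7 libraries: 4 noT, 3 totalT) had 2.992% to 3.67% of its counts on these genes, set B (13: 2 noT, 2 totalT, 6 IL6Ra ko/IL21R ko, 3 IL22 ko) 1.261% to 1.77%, and set C (7: 2 Tbet ko, 2 IFNg ko, 2 IL-17AF ko, 1 IL6Ra ko/IL21R ko) 0.818% to 0.963%. Groups were compared only within a set. No noT or totalT library lies in set C, so for the Tbet ko, IFNg ko and IL-17AF ko groups the difference from these groups and the difference of library set cannot be told apart. Libraries of 1 group differed beyond sampling noise in all 52 pairs (chi-square per degree of freedom of 8.97 to 138), and none was counted as a duplicate. The summed level of 9 macrophage markers was 23540 to 29506 CPM (counts scaled to a common, TMM-normalised library total) in the noT and totalT libraries, and 5 striated muscle markers summed to at most 2.46 CPM in the same libraries.

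The highest levels per kilobase of exon belonged to 4 complex IV genes and 1 complex V gene. Over all 27 libraries, the mean length-scaled level was 306 CPM per kilobase for Cox8a, 249 for Cox6a1, 202 for Atp5a1 (the alpha subunit of the ATP synthase), 187 for Cox6b1 and 172 for Cox4i1. The median length-scaled level was 31.2 CPM per kilobase in complex I, 56.4 in complex II, 43.7 in complex III, 31.2 in complex IV and 39.5 in complex V. Isoforms of other tissues were near 0: Cox7b2 and Cox8c, the testis isoforms, had 0 counts in all 27 libraries, which allows at most 0.15 to 0.435 CPM depending on the library's total (3 counts; counting error only). Cox8b, a heart and muscle isoform, reached 13 counts in 1 library. Cox4i2 (lung), Cox6a2 and Cox7a1 (heart and muscle) averaged 1.07, 2.45 and 2.37 CPM per kilobase.

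In set A the members were higher with total T cells. Their summed level was 6045, 7320, 6639 and 6321 CPM in noT (female 1, female 2, male 1, male 2) and 10588, 8332 and 9968 CPM in totalT (female 1, female 2, male 1). The groups did not overlap, and the ratio of the means was 1.46. The ratio was 1.36 for complex I, 1.3 for complex II, 1.53 for complex III, 1.57 for complex IV and 1.51 for complex V, and no complex overlapped. Of 82 members, 55 were higher and 1 was lower at an adjusted p under 0.05 (edgeR quasi-likelihood test, Benjamini-Hochberg over all 12661 genes tested). Of all genes tested, 27.9% passed in either direction and 14.1% passed as higher. The median log2 fold change was 0.55 over the members and -0.05 over all genes tested. Every totalT library lay above every noT library for 55 of 82 members, against 16% of all genes tested.

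Ribosomal protein levels also moved with the groups inside set A, and their part in the result was not tested. The summed ribosomal protein level was 29915, 34153, 32899 and 29934 CPM of the plain total in noT (female 1, female 2, male 1, male 2) and 36697, 35321 and 32927 in totalT (female 1, female 2, male 1). The totalT male 1 library lay below noT female 2 on this scale, so the groups overlapped. With the ribosomal protein level as a number in the model in place of the sets, which compares all 5 totalT with all 6 noT libraries, 42 members were called, all higher. This fit spans all sets, so it does not separate the ribosomal protein difference inside set A from that between sets.

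**Figure D1:**
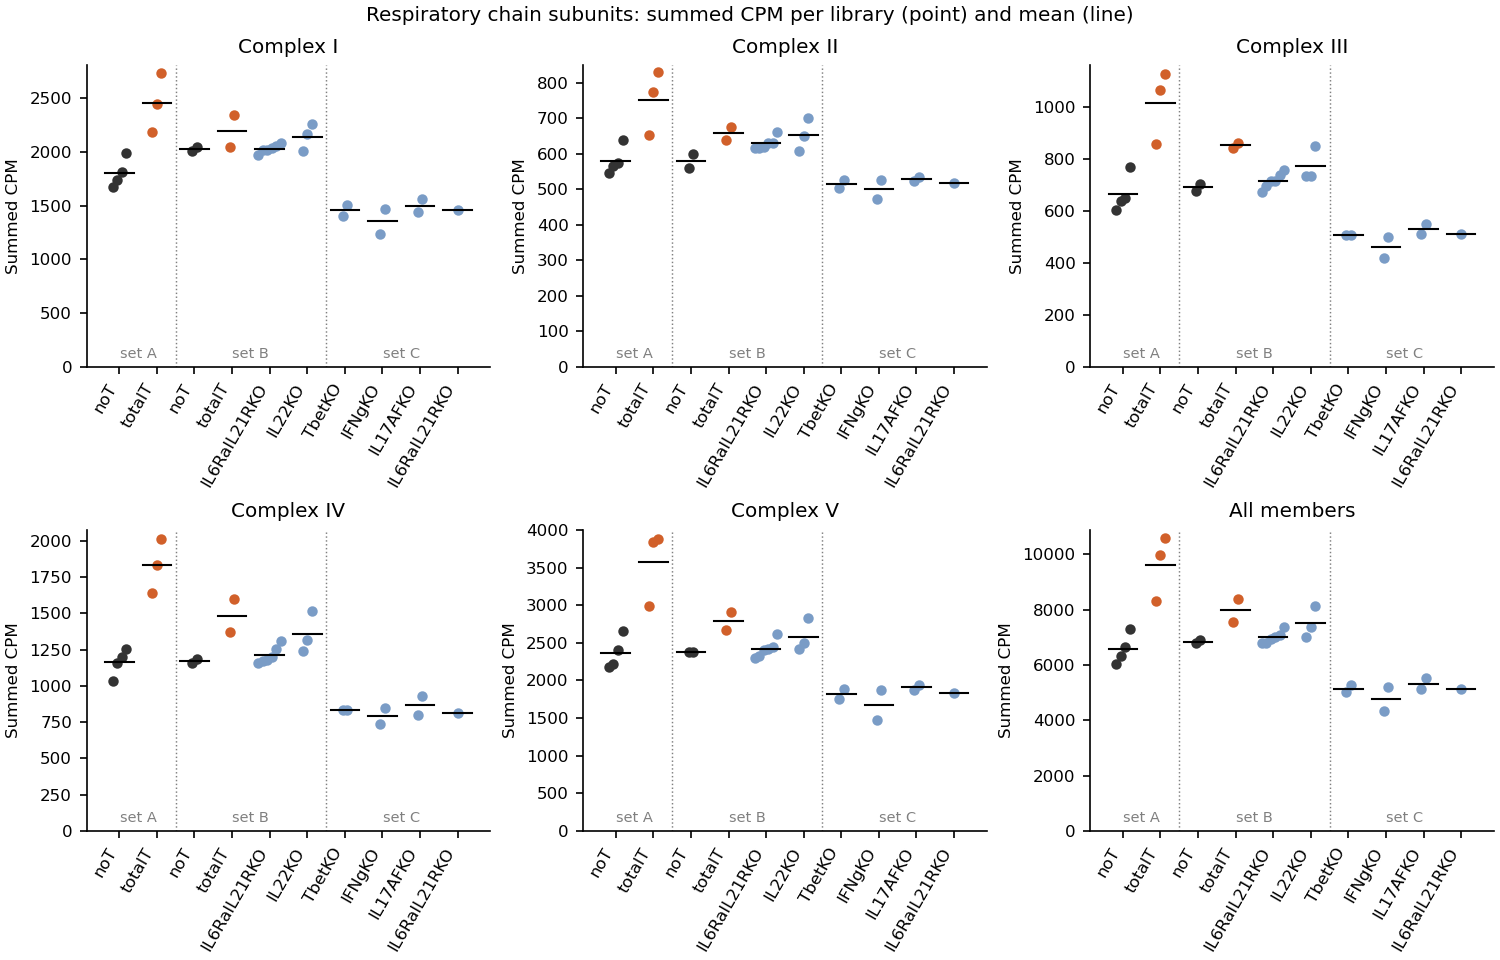
Summed CPM of each complex and of all members in each of the 27 libraries (points) with the mean of each group within its library set (lines), black for noT, orange for totalT and blue for the other groups. In set A the totalT libraries lie above the noT libraries in every panel (ratio 1.46 for all members), in set B the ratio for all members is 1.16, and the set C libraries lie below all others.

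Promoter sequence was examined because most members moved together. NRF-1 and GABP are transcription factors known for binding at promoters of respiratory chain genes, YY1 and the oestrogen-related receptors (ERR) are known for the same. RefSeq's promoter table (GRCm38.p6) had a row for 64 of the 82 tested members, matched by symbol, and the 250 bases before the start were searched on both strands. The letters GCGCANGC (NRF-1) were present for 18 of 64 members (28.1%) and for 9.39% of the 27018 genes of the table. The table is not limited to genes that passed the filter on low counts, as the members are, and a background of such genes was not searched. CCGGAAG (GABP) was present for 12 of 64 (18.8%) against 7.83%, AANATGGCG (YY1) for 3 (4.69%) against 1.29%, and TCAAGGTCA (ERR) for 1 (1.56%) against 0.422%. Among the members higher in set A, 13 of 44 held the NRF-1 letters and 11 of 44 the GABP letters, and among the other members 5 of 20 and 1 of 20. The YY1 letters were present for 1 of 44 and 2 of 20, and the ERR letters for 1 of 44 and 0 of 20. A match describes letters and not a bound site. For each complex, the stretch of the window that no annotated exon covers is printed 5′ to 3′ for the member with the largest rise in set A that has an NRF-1 or GABP match in such a stretch, to show how the matches sit. Capitals mark the matches. Cox6a1 has 3 NRF-1 matches, of which 2 overlap on opposite strands, and Atp5l has 1 match to each motif. Ndufa1, Uqcrfs1 and Cox7b, the members of complexes I, III and IV with the largest rises, held none of the 4 motifs in this window.
Ndufb6 (complex I, chr4:40279422-40279671, minus strand): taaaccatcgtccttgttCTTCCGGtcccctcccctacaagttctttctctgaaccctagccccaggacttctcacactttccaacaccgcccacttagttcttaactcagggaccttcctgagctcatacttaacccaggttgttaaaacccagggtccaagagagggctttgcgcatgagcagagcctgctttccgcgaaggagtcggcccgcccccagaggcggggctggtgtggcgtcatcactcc
Sdhd (complex II, chr9:50603850-50603909, minus strand): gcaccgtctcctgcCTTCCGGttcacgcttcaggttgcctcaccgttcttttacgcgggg
Uqcrh (complex III, chr4:116075072-116075268, minus strand): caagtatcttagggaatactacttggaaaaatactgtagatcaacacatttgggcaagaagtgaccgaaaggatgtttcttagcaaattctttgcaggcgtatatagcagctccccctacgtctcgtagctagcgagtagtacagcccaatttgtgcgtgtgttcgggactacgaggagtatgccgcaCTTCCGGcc
Cox6a1 (complex IV, chr5:115348982-115349129, minus strand): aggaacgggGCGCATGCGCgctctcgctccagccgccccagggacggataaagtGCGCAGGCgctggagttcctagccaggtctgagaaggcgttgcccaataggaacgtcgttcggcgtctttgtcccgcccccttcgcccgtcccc
Atp5l (complex V, chr9:44920752-44920992, minus strand): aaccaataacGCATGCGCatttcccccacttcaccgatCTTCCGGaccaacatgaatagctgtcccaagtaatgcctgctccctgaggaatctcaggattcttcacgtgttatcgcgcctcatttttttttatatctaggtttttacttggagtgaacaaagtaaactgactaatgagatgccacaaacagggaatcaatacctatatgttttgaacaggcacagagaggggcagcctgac

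In complex I, 22 of 37 members rose and none fell in set A, with a median log2 fold change of 0.42. Ndufa1 (chrX:37187588-37191163, minus strand), a small accessory subunit needed for assembly of the complex, was at 23.8, 33.5, 24.1 and 27.4 CPM in noT and at 62.7, 52.9 and 58.4 CPM in totalT. Every totalT library was above every noT library, and the log2 fold change of 1.11 ± 0.16 (SE, adjusted p = 2.1e-05) was the largest of all members. Ndufv1, which binds NADH and the flavin at the entry of the complex, was at 51.4 to 69.5 CPM in noT and 94 to 132 in totalT (0.86 ± 0.14, adjusted p = 6.16e-05). The accessory subunits Ndufb6 (0.94 ± 0.20, adjusted p = 0.00129) and Ndufa3 (0.93 ± 0.14, adjusted p = 5.31e-05) rose as well. The sequencing was unstranded and 39% of the exon bases of Ndufb6 overlap the gene Smim27 on the other strand, so its reads cannot be separated from that gene's. Ndufs1, the largest iron-sulfur subunit, was at 32.4 to 53.6 CPM in noT and 38.2 to 45.8 in totalT (-0.01 ± 0.16, adjusted p = 0.958). Ndufa4, named with complex I but known to associate with complex IV, did not pass (0.18 ± 0.12, adjusted p = 0.304). The 3 members below 0 were Ndufa4l2 (-2.20 ± 1.36, at most 54 counts in a library), Ndufs5 (-0.05 ± 0.34) and Ndufs1, and none of the 3 passed.

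The 4 subunits of complex II, which is also the succinate dehydrogenase of the citric acid cycle, did not all pass. Sdhb, the iron-sulfur subunit (chr4:140961203-140979193), was at 90.8, 117, 99 and 106 CPM in noT and at 205, 155 and 196 CPM in totalT (0.86 ± 0.13, adjusted p = 2.58e-05). The membrane anchor Sdhd rose (0.52 ± 0.13, adjusted p = 0.00508), but did not pass without totalT female 1 (0.38, adjusted p = 0.0546). Sdha, the flavoprotein that oxidises succinate, was at 225 to 260 CPM in noT and 254 to 287 in totalT, with overlapping groups (0.14 ± 0.09, adjusted p = 0.259). The other anchor, Sdhc, also overlapped (111 to 149 against 126 to 166 CPM, 0.23 ± 0.12, adjusted p = 0.162).

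Of the 9 complex III members, 8 rose in set A, and the median was 0.55. Uqcrfs1, the Rieske iron-sulfur protein (chr13:30540308-30545362), was at 65.2, 80.5, 60.6 and 57 CPM in noT and at 136, 114 and 154 CPM in totalT (1.03 ± 0.17, adjusted p = 8.58e-05). No library of the groups overlapped. Uqcrq (0.86 ± 0.16), the hinge protein Uqcrh (0.74 ± 0.14), cytochrome c1, encoded by Cyc1 (0.55 ± 0.11), and the core protein Uqcrc1 (0.41 ± 0.11) rose, with adjusted p-values of 0.000285, 0.000463, 0.000795 and 0.00804. Uqcrc1 did not pass without totalT male 1 (0.37, adjusted p = 0.0582). Uqcr11 was the member that did not pass (0.33 ± 0.16, adjusted p = 0.127).

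In complex IV, 9 of 15 tested members rose, 1 fell, and the median was 0.74, the highest of the 5 complexes. Cox7b (chrX:106015700-106022450) was at 41.6, 59.8, 55.9 and 46 CPM in noT and at 110, 84.5 and 109 CPM in totalT (1.01 ± 0.14, adjusted p = 1.46e-05). Cox5a (0.98 ± 0.15, adjusted p = 5.43e-05) and Cox7a2, the isoform of Cox7a found outside heart and muscle (0.96 ± 0.15, adjusted p = 4.85e-05), rose by a similar size. Cox8a, the member with the highest length-scaled level, went from 153 to 187 CPM in noT to 266 to 326 CPM in totalT (0.83 ± 0.11, adjusted p = 8.93e-06). Cox4i1, the common isoform of subunit 4, rose by 0.58 ± 0.13 (adjusted p = 0.00149) and Cox6a1 by 0.45 ± 0.11 (adjusted p = 0.00324).

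The exception was Cox6b2, the testis isoform of subunit 6b, a low-level gene (chr7:4751792-4753094, 21 to 120 counts in a library). It was at 4.18, 3.83, 8.41 and 4.76 CPM in noT and at 3.57, 1.77 and 1.13 CPM in totalT (-1.28 ± 0.42, adjusted p = 0.0262). Every totalT library was below every noT library. The call did not hold without noT male 1 (adjusted p = 0.0721), totalT female 2 (0.0698) or totalT male 1 (0.203), and over 16 alternatives the adjusted p ranged from 0.00568 to 0.213. Its common counterpart Cox6b1 was at 103 to 124 CPM in noT and 154 to 210 CPM in totalT (0.74 ± 0.11, adjusted p = 2.63e-05). The isoforms Cox4i2 (0.74 ± 1.09), Cox6a2 (-1.07 ± 1.01) and Cox7a1 (0.51 ± 0.95) had at most 61 counts in a library, standard errors close to or above the difference, and did not pass.

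In complex V, 14 of 17 members rose and none fell, with a median of 0.63. Atp5mpl, a small proteolipid of the membrane part (chr12:111961375-111966977), was at 32.9, 44.1, 37.6 and 42.1 CPM in noT and at 86.8, 67.9 and 83.3 CPM in totalT (1.04 ± 0.15, adjusted p = 1.82e-05). Subunits g (Atp5l, 0.99 ± 0.23, adjusted p = 0.00221) and e (Atp5k, 0.94 ± 0.20, adjusted p = 0.000986), which help the enzyme form dimers, rose too. The catalytic head subunits alpha (Atp5a1, 0.45 ± 0.09, adjusted p = 0.000841) and beta (Atp5b, 0.59 ± 0.13, adjusted p = 0.00104) rose by less. Atp5g1, Atp5g2 and Atp5g3 encode the same mature c subunit of the rotor ring. Of these 3, Atp5g3 rose (119 to 157 CPM against 190 to 299 CPM, 0.91 ± 0.13, adjusted p = 2.36e-05), whereas Atp5g1 (0.40 ± 0.21, adjusted p = 0.171) and Atp5g2 (0.63 ± 0.50, adjusted p = 0.38) did not pass.

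**Figure D2:**
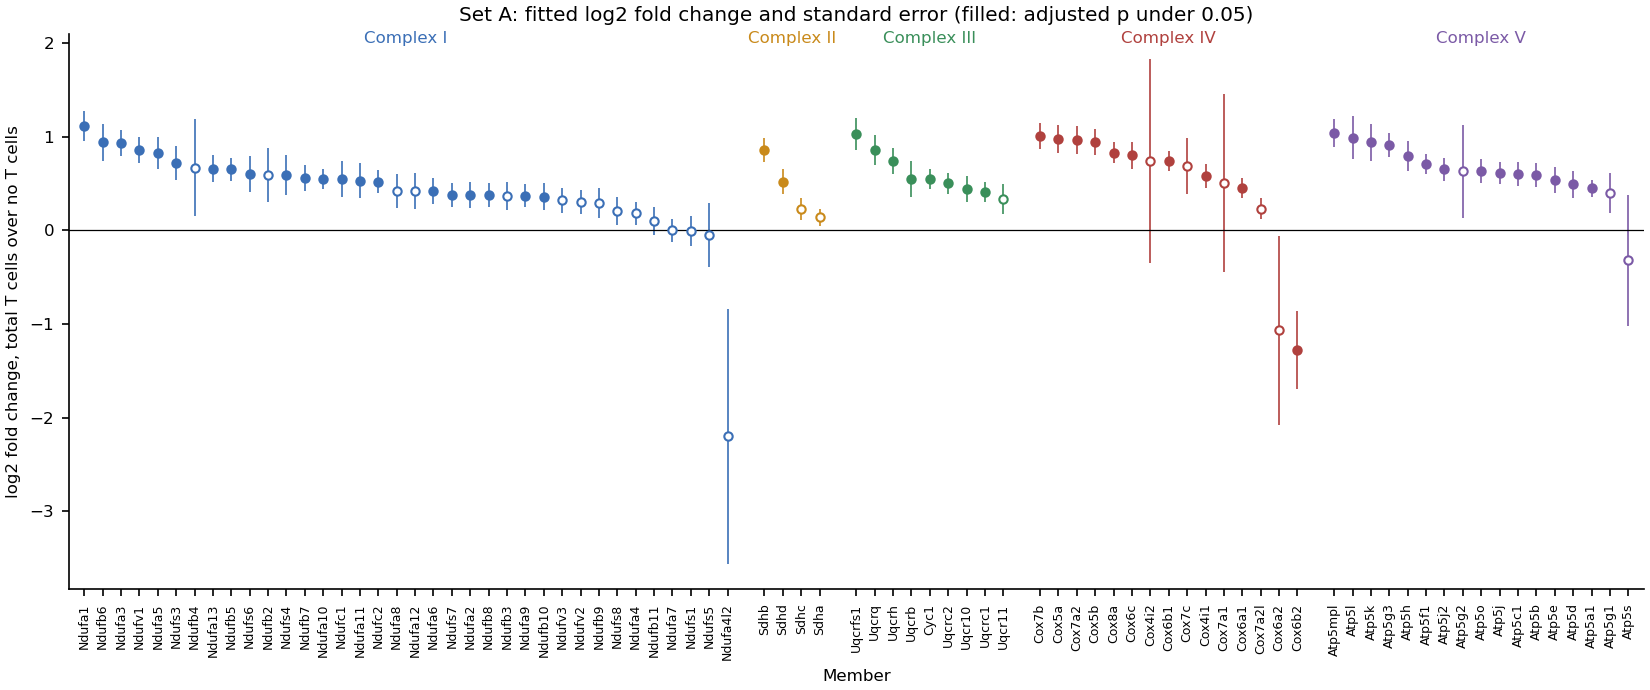
Fitted log2 fold change (vertical) of the tested members (horizontal, by symbol) without 1 that is not reported here, totalT over noT in set A, with the standard error as bars, ordered within each complex. Filled points passed an adjusted p of 0.05 (Cox6b2 is the 1 below 0), and the widest bars belong to members with few counts such as Ndufa4l2 and Cox4i2.

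The members' median was above 0 in every class of gene length, and with or without annotated pseudogene copies. The median log2 fold change of the members in set A was 0.51 for exon lengths under 1 kb (20 members), 0.56 for 1 to 2 kb (32), 0.55 for 2 to 4 kb (20) and 0.58 for 4 kb and over (10). Other genes, without the ribosomal protein genes, had medians of 0.16, 0.07, -0.03 and -0.09 in the same classes. The 58 members with no annotated pseudogene copy had a median of 0.53, with 41 called higher, and the 24 with at least 1 (a transcript matching at 95% identity or more over 75 bases) had a median of 0.62, with 14 called higher. Among the 58, Ndufc1, Ndufv3 and Cox5b match other annotated genes that are not pseudogenes (36, 4 and 1) at this identity. Scaling by plain library totals moved the median of all genes tested by -0.15 on the log2 scale and left 40 members higher and 1 lower, and the members' median lay 0.60 above that of all genes against 0.59 with the edgeR scaling (TMM). Under plain totals the calls over all genes changed from 1786 higher and 1746 lower to 1220 higher and 2559 lower.

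In set B the same comparison rests on 2 noT and 2 totalT libraries, all female, and 1 member passed. The summed level was 6915 and 6784 CPM in noT (female 3 and 4) and 7560 and 8391 CPM in totalT (female 3 and 4), a ratio of 1.16. Complex I overlapped between the groups (ratio 1.08), while complexes II, III, IV and V did not (1.13, 1.23, 1.27 and 1.17). Summed ribosomal protein levels also lay apart, unlike in set A. They were 14522.1 and 14732.5 CPM of the plain total in noT and 16266.9 and 17701.6 in totalT. The median log2 fold change of the cytosolic ribosomal proteins was 0.28, and their part in the result was not tested. Cox7a2l (chr17:83501918-83517330), counted here with complex IV, was at 109 and 101 CPM in noT and 180 and 165 CPM in totalT (0.71 ± 0.14, adjusted p = 0.0248). Of all genes tested, 0.671% passed in set B. In set A, Cox7a2l was at 139 to 158 CPM in noT and 159 to 184 CPM in totalT, and did not pass (0.23 ± 0.11, adjusted p = 0.127). The set B call did not hold when any of the 4 libraries was left out (adjusted p = 0.132 without noT female 3, 0.14 without noT female 4, 0.162 without totalT female 3 and 0.0655 without totalT female 4), while the log2 fold change was 0.77, 0.66, 0.65 and 0.77. Each of these fits leaves 1 library in a group, which is assumed to vary like the other groups. Over 13 alternatives the adjusted p ranged from 0.00269 to 0.162.

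The median log2 fold change of the members in set B was 0.21, against 0.00 over all genes tested, and 63 of 82 members were above 0, against 6366 of 12661 genes. Without totalT female 4 the members' median was 0.08. At an unadjusted p under 0.05 there were 14 of 82 members, against 1794 of 12661 genes, and 13 of the 14 did not pass after adjustment. Uqcrfs1 was at 86.5 and 60.9 CPM in noT and 117 and 118 CPM in totalT (0.67 ± 0.22, adjusted p = 0.143), and Uqcrh was at 81.8 and 79.1 CPM against 117 and 129 CPM (0.61 ± 0.19, adjusted p = 0.122). For 35 of 82 members both totalT libraries lay above both noT libraries, against 23.9% of all genes tested. For 32 members (39%) the groups lay apart in this direction in both sets, against 9.27% of all genes tested. By complex these were 9 of 37 in complex I, 2 of 4 in complex II, 5 of 9 in complex III, 7 of 15 in complex IV and 9 of 17 in complex V.

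Of the 55 members called higher in set A, 45 (81.8%) were above 0 in set B, against 87.8% of the 1786 genes called higher in set A. Set A gave these 55 members a median of 0.61, and set B gave them 0.26. The exceptions included Ndufa5 (0.83 in set A, -0.11 in set B) and Atp5k (0.94 and -0.09), chosen for mention after their values were seen. The difference between the sets was tested as an interaction: 0 members passed with edgeR, DESeq2 called 1, and 0% of all genes tested passed with edgeR. At an unadjusted p under 0.05 there were 24 of 82 members, against 1657 of 12661 genes. The median of that difference, set B minus set A, was -0.33, and without totalT female 2 there were 6 calls.

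**Figure D3:**
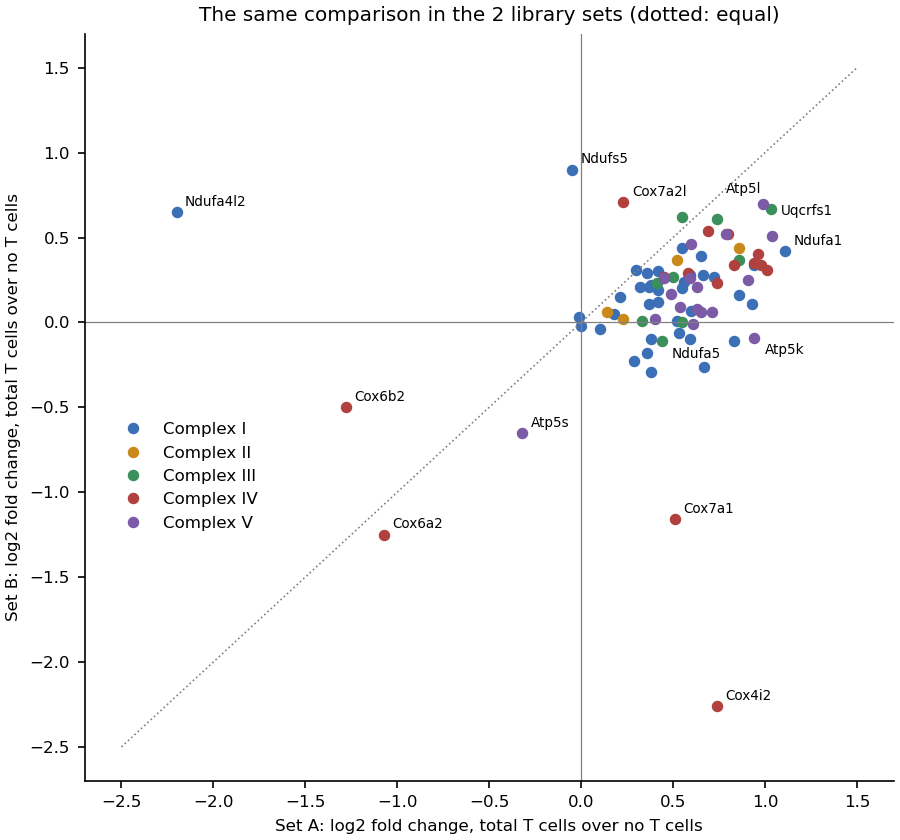
Log2 fold change of totalT over noT for each of the 82 tested members in set A (horizontal) and set B (vertical), coloured by complex; the dotted line marks equal values. Most points lie right of 0 in set A and below the dotted line, and the points far from the main cloud are low-count isoforms such as Ndufa4l2, Cox4i2, Cox6a2 and Cox7a1.

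Other genes of the pathway were tested in the same fit, where 14.1% of all genes tested were called higher in set A. In set A, of 13 citric acid cycle genes, 8 were higher and 1 lower, with a median of 0.42: citrate synthase (Cs) rose by 0.77 ± 0.11 (adjusted p = 2.27e-05) and Mdh2 by 0.50 ± 0.12 (adjusted p = 0.00306), while Suclg2 fell by 0.68 (adjusted p = 0.0406). Of 41 tested assembly factors, 2 rose, a smaller share than over all genes (Coa5, 1.01 ± 0.12, and Coa7, 1.30 ± 0.35), and the median was 0.14. Of 12 carriers and coenzyme Q genes, Coq10b rose (0.88 ± 0.16), and the median was 0.05. Of 76 tested mitochondrial ribosomal proteins, 12 rose, a share near that of all genes, with a median of 0.27, and of 81 tested cytosolic ribosomal proteins 29 rose and 1 fell, also with a median of 0.27. Of 13 subunits encoded in mitochondrial DNA, 7 had enough counts to be tested: mt-Nd1, mt-Nd2, mt-Nd4, mt-Nd5, mt-Nd6, mt-Co1 and mt-Cytb. Why the others had few counts was not examined, so these subunits are covered only in part. None of the 7 passed (log2 fold changes of -0.15 to 0.42, median 0.20, 0 at an unadjusted p under 0.05, edgeR). Among 10 tested regulators, Esrra, the receptor ERR-alpha, rose (0.45 ± 0.16, adjusted p = 0.0395) and Tfam, which packages mitochondrial DNA, fell by 0.57 (adjusted p = 0.0418). The genes of the other factors whose letters were searched did not pass with edgeR. They were Nrf1 (-0.41, adjusted p = 0.107), Gabpa (0.01, 0.963), Gabpb1 (0.15, 0.6) and Yy1 (0.16, 0.579). Atpif1, the inhibitor of complex V, and Ndufab1, a complex I subunit outside the rule, did not pass (-0.08 and -0.12). In set B none of the genes in these lists passed, with medians of 0.21 for the citric acid cycle, 0.28 for cytosolic ribosomal proteins and -0.17 for the mitochondrially encoded subunits.

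**Figure D4:**
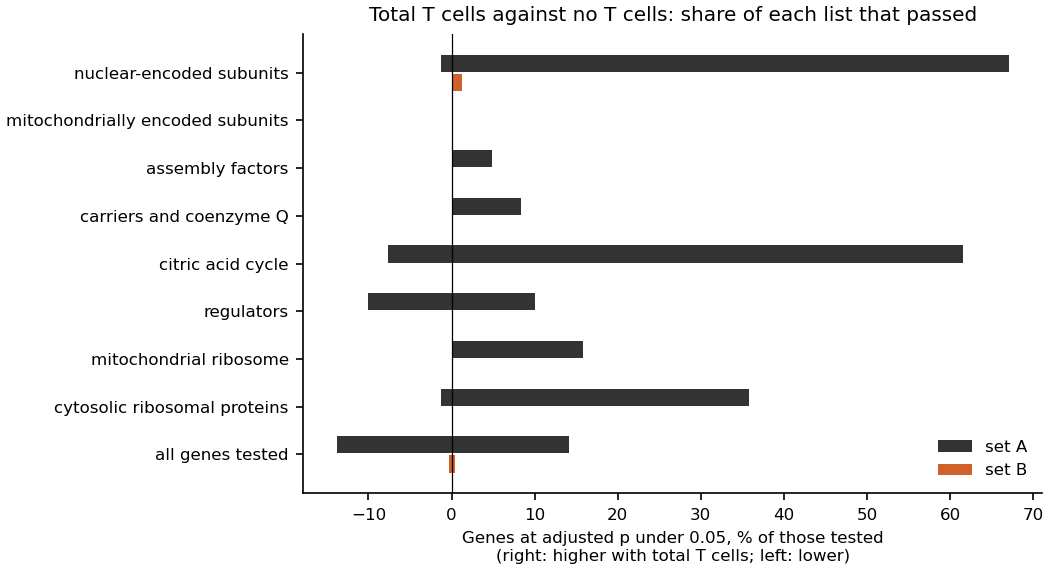
Share of the tested genes of each list that passed an adjusted p of 0.05 in totalT over noT, higher to the right and lower to the left, for set A (black) and set B (orange). In set A the nuclear-encoded subunits (55 of 82 higher) and the citric acid cycle (8 of 13 higher) have the longest bars, and the bottom bar gives all genes tested (14.1% higher); in set B 1 of the 82 subunits passed.

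Markers of other cell types moved with the same comparison. The summed level of 6 fibroblast markers was 426 to 836 CPM in noT and 240 to 337 CPM in totalT in set A (2 of 6 called lower), and 900 to 1443 against 250 to 391 CPM in set B (3 of 6 called lower). None of these 6 was at 0 throughout a group. The 4 dendritic cell markers summed to 17.8 to 28.6 CPM in noT and 29.3 to 59.1 in totalT in set A (2 higher and 1 lower), and 13.4 to 20.5 against 40.1 to 62.2 CPM in set B (none called by edgeR, 2 at an unadjusted p under 0.05). The 9 T cell markers summed to 80.1 to 109 against 40.2 to 89.8 CPM in set A. Nearly all of the noT sums was Cd4, at 78.7 to 108 CPM in noT and 19.9 to 86 in totalT. Cd4 was the 1 marker with enough counts to be tested, and was not called. Cd8a and Cd2 were higher in every totalT library (0.887 to 5.12 and 1.4 to 2.59 CPM) than in noT (at most 0.343 and 0.514). Cd3d and Lck overlapped. Cd3e, Cd3g, Trac and Trbc2 were at 0 in all 4 noT libraries and had counts in at least 1 totalT library. The 6 neutrophil markers summed to 65.1 to 1797 CPM in noT and 25.6 to 225 CPM in totalT in set A (all 4 tested below 0), and to 0 to 9.93 against 7.65 to 37.5 CPM in set B (all 4 above 0), with none called by edgeR in either set (0 and 1 at an unadjusted p under 0.05). Of the 9 macrophage markers, 4 rose and 3 fell in set A, with overlapping sums (23540 to 26283 against 23686 to 29506 CPM). The sums hide moves in opposite directions. Lyz2 was at 7745 to 10458 CPM in noT and 14406 to 14868 in totalT. Mrc1 went from 2301 to 2896 CPM down to 506 to 1414, and Csf1r from 4196 to 4778 CPM down to 2671 to 3440. Of 2 tested osteoclast markers, 1 was called lower in set A. Their part in the result was not tested. In bulk libraries of sorted cells, a change in the mix of cells and a change of RNA per cell cannot be told apart.

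With T cells from IL6Ra ko/IL21R ko donors the members lay below total T cells in sum. In set B their summed level was 6796 to 7385 CPM (median 6985, 6 libraries), below both totalT libraries (ratio 0.879), and overlapped noT (ratio 1.02), although the sum of complex II lay above both noT libraries (ratio 1.09). Against totalT the sums of complexes III, IV and V lay apart (ratios 0.84, 0.818 and 0.867), and those of complexes I and II overlapped (0.927 and 0.958). Against totalT, 18 of 82 members had an unadjusted p under 0.05, against 2486 of 12661 genes. After adjustment 1 of 82 members was called, lower, where 5.55% of all genes tested passed. This member was Atp5mpl, at 39.2 to 52.5 CPM (median 44.2) against 53.3 and 74.1 CPM (-0.55 ± 0.16, adjusted p = 0.0466). The call held in 6 of 17 alternatives, with an adjusted p of 0.000278 to 0.474. It did not hold without totalT female 3 (-0.77, adjusted p = 0.0651), totalT female 4 (-0.30, adjusted p = 0.474), or IL6Ra ko/IL21R ko female 1, female 3, male 1 or male 3 (0.0865, 0.0811, 0.0735 and 0.0755). The members' median was -0.16 and 67 of 82 were below 0, including all 9 of complex III and 14 of 15 of complex IV; the median of all genes tested was 0.02. Uqcrfs1 was at 60.4 to 93.7 CPM, below both totalT libraries (-0.61 ± 0.18, adjusted p = 0.052). In sum, fibroblast markers were higher (361 to 1127 CPM against 250 to 391, 3 of 6 called) and dendritic cell markers were lower (19.6 to 29 against 40.1 to 62.2 CPM, 1 of 4 called). Neutrophil markers were lower in sum (0 to 2.02 against 7.65 to 37.5 CPM, 2 of 4 tested called). Elane was at 0 in all 6 libraries, against 1.94 and 7.33 CPM in totalT. Ly6g was at 0 in both groups, and Retnlg was at 0 in totalT and at 0.726 CPM in IL6Ra ko/IL21R ko female 2. Endothelial markers were lower in sum (5.5 to 27.3 against 35.1 to 53.6 CPM, 1 of 4 called), and 1 of 9 macrophage markers was called lower. In the same contrast, of 81 cytosolic ribosomal proteins 6 were lower, with a median of -0.27. Their part in the result was not tested. The 7 tested subunits encoded in mitochondrial DNA were all above 0 (0.23 to 0.48), but none passed (0 at an unadjusted p under 0.05, edgeR). Among other pathway genes, Cs fell by 0.45 (adjusted p = 0.0317) and Coq10b by 0.96 (adjusted p = 0.00245).

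Against noT, 0 members were called in the IL6Ra ko/IL21R ko group with edgeR or DESeq2 (0.34% of all genes called), with a median of -0.01. At an unadjusted p under 0.05 there were 6 of 82 members, against 1408 of 12661 genes. These contrasts share the totalT or noT libraries of set B with the others, so they are not independent of each other. The members with the largest called rise of each complex in set A were at -0.04 (Atp5mpl), 0.06 (Uqcrfs1), -0.13 (Cox7b), 0.10 (Sdhb) and 0.33 (Ndufa1) in this contrast, with standard errors of 0.17, 0.19, 0.16, 0.14 and 0.18. Cox7a2l was at 121 to 165 CPM, above noT (109 and 101), with 0.37 ± 0.13 (adjusted p = 0.216).

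With T cells from IL22 ko donors the summed level was 7362, 7005 and 8149 CPM (female 1, female 2, male 1), above both noT libraries and overlapping totalT. Against totalT, 0 members passed with edgeR or DESeq2 (0 at an unadjusted p under 0.05, median -0.09, 0.0079% of all genes called). Against noT, 0 passed with either tool (7 unadjusted, median 0.11, 0% of all genes called), with a ratio of the sums of 1.1. Against IL6Ra ko/IL21R ko, 0 passed with either tool (6 unadjusted, median 0.09, 0.727% of all genes called). Over all 12661 genes the unadjusted counts in these 3 comparisons were 664, 1235 and 1341. The male library was the highest of the 3 for each complex, and sex was a term of the fit. Sdhb was at 121, 115 and 142 CPM, Uqcrfs1 at 93.4, 83.7 and 108 CPM, and Cox7a2l at 144, 137 and 153 CPM.

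Within set C, where libraries without T-bet, interferon-gamma or IL-17A/F in the transferred cells could be compared with each other only, no member passed. Summed levels were 5009 and 5265 CPM for Tbet ko, 4333 and 5216 for IFNg ko, 5146 and 5517 for IL-17AF ko, and 5136 for the IL6Ra ko/IL21R ko library of the set. For IFNg ko against Tbet ko, 0 members passed with edgeR or DESeq2 (3 unadjusted, median -0.10, 0% of all genes called), and without IFNg ko female 2 there were 3 calls. For IL-17AF ko against Tbet ko, 0 passed with either tool (2 unadjusted, median 0.05, 0% of all genes called). For IL-17AF ko against IFNg ko, 0 passed with either tool (8 unadjusted, median 0.17, 0.166% of all genes called). Over all 12661 genes the unadjusted counts in these 3 comparisons were 607, 316 and 1096. The sums of complex III lay apart in all 3 comparisons, with ratios of 0.909 (IFNg ko to Tbet ko), 1.04 (IL-17AF ko to Tbet ko) and 1.15 (IL-17AF ko to IFNg ko), and those of complex V in the last (1.14). The 7 tested subunits encoded in mitochondrial DNA had the opposite sign to the members' median in each comparison: all 7 were above 0 in IFNg ko against Tbet ko (1.06 to 1.27, 7 unadjusted) and below 0 in IL-17AF ko against IFNg ko (-1.65 to -1.37, 7 unadjusted), and below 0 in IL-17AF ko against Tbet ko (-0.42 to -0.15, 0 unadjusted), with none called by edgeR. Sdhb was at 76 and 86.1 CPM in Tbet ko, 92 and 77.7 in IFNg ko and 90.8 and 107 in IL-17AF ko, and Ndufa1 was at 27.5 and 25, 15 and 24.2, and 25.7 and 27.1 CPM. The IFNg ko female 1 library, with 6902602 counts, had the lowest sum of all 27 libraries in each of the 5 complexes.

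The members also differed between library sets within the same T cell group, which is a description with no test. From set A to set B, over noT and totalT, the median of the members was -0.05 on the log2 scale, that of all genes -0.02 and that of the ribosomal protein genes -1.60. A few members shifted as ribosomal protein genes did: Atp5g2 by -4.61, Cox7c by -2.72, Atp5g1 by -2.15, Atp5h by -1.31, Cox5b by -0.90, Uqcrb by -0.77 and Ndufs5 by -0.64. These were all 7 members below -0.5, chosen after their values were seen, and 6 of them are among the 24 members with annotated pseudogene copies whose transcripts match at 95% identity or more (Atp5g1 2, Atp5g2 2, Atp5h 4, Cox7c 4, Uqcrb 3, Ndufs5 1), the exception being Cox5b. Cox5b has no pseudogene copy, but transcripts of 1 other annotated gene match it at the same identity. Atp5g1 matches 50 other annotated genes at this identity, of which 2 are the pseudogene copies. The other members with copies lay above -0.5, such as Atp5l (9 copies, -0.21) and Cox7b (2 copies, 0.02), and the median over all 24 was -0.24. Atp5g2 was at 12.1 to 24.5 CPM in the 7 libraries of set A and at 0 to 1.42 CPM in the 20 others. Atp5g3, the c subunit gene with no copy, was at 119 to 299 CPM in set A and at 148 to 203 in set B. Reads that match a gene and its copy equally can be split or dropped by the counting, so the levels of the 6 with copies, and that of Cox5b, are uncertain between sets.

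**Figure D5:**
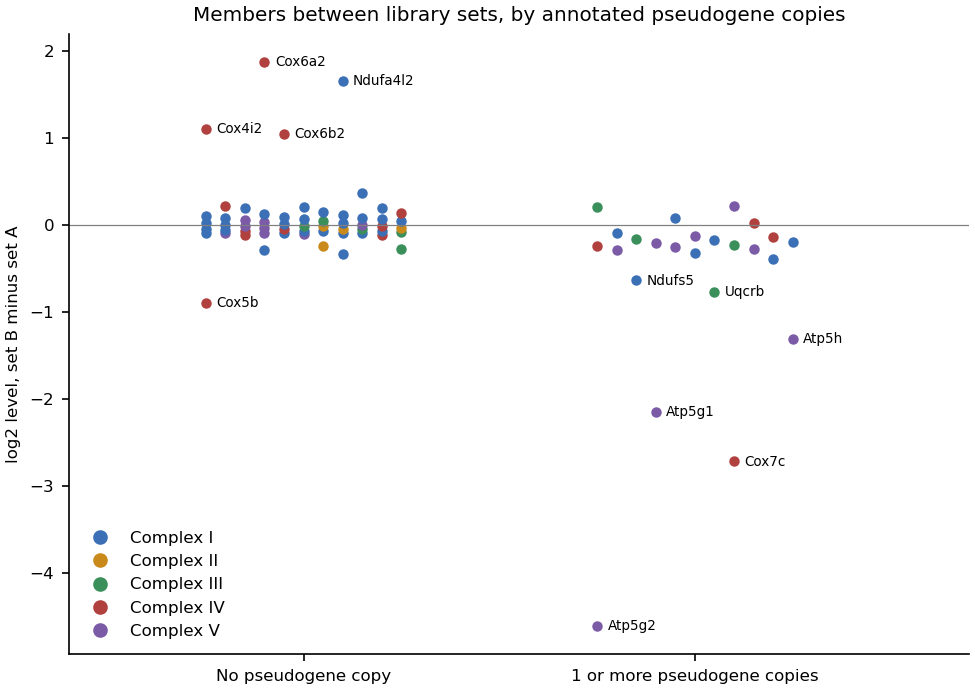
Fitted log2 difference of each of the 82 tested members between library sets (set B minus set A, over noT and totalT), for members without (left) and with (right) annotated pseudogene copies, coloured by complex. Named points lie beyond 0.5. Of the 7 members below -0.5, 6 have pseudogene copies, while the 4 above 0.5 are low-level isoforms.

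From set B to set C the shift was broad. In the IL6Ra ko/IL21R ko group, the only group with libraries in both, 78 of 82 members were lower in the single set C library, with a median of -0.53 against -0.01 over all genes and -0.90 over the ribosomal protein genes. The medians of complexes I to V were -0.52, -0.48, -0.46, -0.54 and -0.61. With 1 library in set C this has no replicate check. The 6 fibroblast markers summed to 3660 CPM in this library, against 361 to 1127 CPM in the 6 set B libraries of the group. The macrophage markers summed to 27504 CPM, inside the set B range of 25150 to 29517. In the other set C groups the fibroblast sums were 2270 to 3653 CPM. The part of the cell mix in the shift was not tested. Within the members' sum, complex I took 24.5% to 27.7% in set A, 27% to 29.6% in set B and 27.9% to 28.5% in set C, complex IV 17.2% to 19.7%, 16.7% to 19% and 15.6% to 17%, and complex V 35.1% to 38.6%, 33.8% to 35.5% and 34% to 36.4%. Complex II took 7.77% to 9.08%, 8.06% to 9.53% and 9.67% to 10.9%, so that its share in set C lay above that of every library of sets A and B.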

How the data were processed

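RNA from bulk sorted dural macrophages was sequenced in 27 libraries (75-nt single-end reads, unstranded kit, per the labels' protocols). The deposited values per gene are named normcounts but were taken as raw counts. They were whole numbers with different totals, and every count from 1 to 20 occurred in each of the 27 columns. The submitters' processing notes name the build GRCm38, the aligner STAR (2.4.0j), the counter featureCounts and DESeq2 (1.20.0). Counts without a gene symbol were 0.086% to 0.121% of each library. Column names gave group and sex but no replicate number of the titles, so libraries carry numbers that only name them.

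Genes with a mean normalised count of at least 10 (12661) were tested in 1 fit over all 27 libraries with edgeR 4.0.16 (quasi-likelihood test, TMM scaling, R 4.3.3), with a coefficient for each of 10 combinations of library set and group, sex as a term, 16 residual degrees of freedom and Benjamini-Hochberg adjustment. Sets are the 3-class natural breaks of the log2 summed ribosomal protein CPM. Comparisons in set A and set B share their controls within a set. CPM used TMM-scaled totals; per-length levels used merged exons. Pseudogene copies were sought with blastn 2.17.0. DESeq2 1.42.0, other scalings, filters and models, and leaving out each library were alternatives; plain library totals was chosen after seeing the data. On simulated counts for totalT against noT in set A, 48% of 100 genes changed by 1 on the log2 scale and 83.8% of 99 changed by 2 were called among 12523 genes.

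The members and lists were chosen with earlier results of these data known. Named were, in each comparison, up to 4 called members with the largest fold change per complex, a fixed list of core subunits and tissue isoforms, and the 5 highest per length. Uqcr11, Ndufa5, Atp5k, Ndufs5, Ndufa4l2 and the members named for shifts between sets were named after their values were seen. Intervals were not given for single libraries; count depth limits low-level isoforms. Values of 1 member of the fixed list are not reported here; it remains in the counts, sums and medians.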

Additional observations from a re-analysis of the deposited data

Results flagged for a closer look

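Libraries that stood apart within their own group and set were sought in 146 groups of values, by the gap of the highest or lowest library to its neighbour relative to the group's range. Chance marks about 1 in 20 such groups, and 8 were marked. Among the 4 noT libraries of set A, female 1 was low for Cox5b (43.5 CPM, the others 62 to 64) and Cox7a2 (40.9 CPM, the others 47.5 to 48.7), and female 2 was high for Ndufb8 (74.3 CPM, the others 59.3 to 61.7) and Uqcrq (95.6 CPM, the others 67.1 to 70.3). Among the 6 IL6Ra ko/IL21R ko libraries of set B, male 1 was high for the complex II sum (662 CPM, the others 617 to 631) and for Cox8b (0.854 CPM, the others 0 to 0.247), male 3 was low for Atp5o (69.7 CPM, the others 79 to 83.1), and female 2 was low for Sdhc (130 CPM, the others 144 to 152). Of the exon bases of Atp5o, 35.6% overlap a gene on the other strand.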

How the results depend on the processing

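In set A, 55 of 56 calls were higher; the count was 37 with only the libraries of the set and 42 to 58 when 1 library was left out, and 30 of the 56 members passed in every setting run. The fits over all libraries compare totalT with noT across sets, a different quantity from set B. They leave out library sets (group and sex), keep them as a term (additive) or put the ribosomal protein level as a number in their place. There 40, 51 and 42 members passed, against 1 in set B, which gave 2 without a filter. IL6Ra ko/IL21R ko against totalT in set B, with 1 call, gave 4 with DESeq2, 3 with RLE scaling, 2 without a filter, 45 with group and sex, 17 with the additive model, 2 with the ribosomal protein level, 0 with plain totals, 2 without sex, 0 with only its own set, and 0 to 4 when 1 library was left out. Against noT it gave 2 with group and sex. The difference between sets gave 1 with DESeq2, 1 without a filter and 0 to 6 when 1 library was left out. IFNg ko against Tbet ko gave 0 to 3 and IL-17AF ko against IFNg ko 0 to 4 when 1 library was left out. Cyc1 in set B reversed from -0.00 to 0.35, 0.35 and 0.34 in the 3 fits over all libraries. Where no value above shows it, the cause was not tested. For named members, 1206 values kept direction and side of the threshold, 50 newly passed, 161 no longer passed and 3 reversed. No paired analysis was possible because the column names carry no replicate number. Depth and library number limit power: in the simulated totalT against noT comparison of set B, with 2 libraries each, 35% of 100 genes changed by 1 on the log2 scale were called among 12525 genes; smaller changes and set C were not simulated.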
